A study of Mus musculus with 8 samples.

Results

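The comparison sets cerebral cortex of newborn mice that inherited a deletion from Snrpn to Ube3a on the paternal chromosome against wild-type cortex. Members were taken from the labels alone, as the total RNA sample named del +/s-u and the wild types named WT1 and WT2, which makes 3 of the 8 samples in the series. The paternal deletion has 1 sample and wild type has 2, called replicates 1 and 2. All 3 are C57BL/6 mice at postnatal day 0, and no other allele or treatment is given for either group. The other samples are the same deletion on the maternal chromosome (n = 1), that deletion joined to a deletion of the paternal Snrpn promoter (n = 2), and polyA RNA of the wild types (n = 2). The titles of the 2 double deletions name different promoter alleles, and they are called replicates 1 and 2 of that group here. The series design names the wild types as littermates of the mutants, without saying which belongs to which mutant, and the sources used here do not give the number of animals behind a sample.

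Each array tiled both strands of a 1810-kb span of chromosome 7 (positions 65890585 to 67700765, mm9) with 25248 probes per strand. First-strand cDNA made from 15 µg of total RNA was labelled, so that RNA of each strand was read by its own probes. The files name no genes, so the tissue label could not be set against marker genes, and genes are named below only from the gene order of the locus. The median red intensity was 98 in the paternal deletion and 134.5 and 125 in wild type, over a local background of 36 to 38. Well above background were 83.7% of spots in the deletion and 81.8% and 81.1% in wild type. The number of arrays limits the precision. A level is a mean log2 signal after subtraction of the array's 75th percentile of probes outside the locus, and a change is the level in the paternal deletion minus the mean level of the wild types. Values near the scanner background are raised by a constant of 50 that was added before the logarithm, and the lowest level a probe could take in the deletion was -1.63.

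Ube3a encodes an E3 ubiquitin ligase, lies on the plus strand, and is expressed mainly from the maternal chromosome in neurons. On the paternal chromosome a long RNA starts at Snrpn and runs on the minus strand through the host genes of small nucleolar RNAs (the Snord116 and Snord115 clusters) towards Ube3a, and its far part opposite Ube3a is called Ube3a-ATS. In mouse neurons this antisense RNA is known for keeping the paternal Ube3a silent. In people, loss of the paternal genes of the region underlies Prader-Willi syndrome, and loss of maternal UBE3A underlies Angelman syndrome. Both RNAs come from bulk tissue here, so fewer expressing cells and less RNA per cell cannot be told apart.

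The starts of the opposing RNAs are shown because the changes below are read between them. They are RefSeq windows on build GRCm38.p6, from 250 bases before to 50 after an annotated start, and their positions cannot be set beside the mm9 positions of the array. Capitals mark CGCATGCG, the core of the motif of the transcription factor NRF1, which reads the same on both strands. The first is the shared start of Snurf and Snrpn (chr7:60005150-60005449, minus strand), the second the next Snrpn start above it (chr7:60047929-60048228, minus strand), and the third the start of Ube3a (chr7:59228500-59228799, plus strand).
Snurf and Snrpn start: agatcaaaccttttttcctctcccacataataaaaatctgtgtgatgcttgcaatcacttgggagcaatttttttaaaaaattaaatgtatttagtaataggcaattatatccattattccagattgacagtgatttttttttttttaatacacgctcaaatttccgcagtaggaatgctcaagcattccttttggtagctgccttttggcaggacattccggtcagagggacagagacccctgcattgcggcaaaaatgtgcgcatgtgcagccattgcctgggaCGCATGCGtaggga
Upstream Snrpn start: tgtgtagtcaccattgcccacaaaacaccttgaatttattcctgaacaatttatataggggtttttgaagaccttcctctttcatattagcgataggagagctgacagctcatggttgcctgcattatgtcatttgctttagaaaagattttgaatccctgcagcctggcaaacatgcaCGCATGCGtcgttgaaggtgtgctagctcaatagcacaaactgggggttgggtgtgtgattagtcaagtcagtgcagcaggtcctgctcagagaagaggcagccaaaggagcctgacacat
Ube3a start: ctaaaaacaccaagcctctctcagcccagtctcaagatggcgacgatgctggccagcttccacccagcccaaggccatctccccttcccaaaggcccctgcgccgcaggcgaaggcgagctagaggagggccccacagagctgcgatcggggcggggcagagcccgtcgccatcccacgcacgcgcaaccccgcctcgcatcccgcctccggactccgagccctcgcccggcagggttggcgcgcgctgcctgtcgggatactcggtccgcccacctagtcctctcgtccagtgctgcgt
Each of the 4 RefSeq Snrpn windows holds the motif once, the Ube3a window does not hold it, and 615 of 32851 RefSeq windows (1.87%) do. The Ube3a window has 9.67 CG dinucleotides per 100 bases and the shared Snurf and Snrpn window has 2.33. A match is a description of the letters and says nothing about the factor.

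The first question was where the deletion lies on each strand. On the plus strand the change stepped between probes at 66526853 and 66526901 at the lower end and between probes at 67147632 and 67147710 at the upper end, which leaves a span of 620.73 kb. The upper step lay between the same probes on the minus strand. The lower step on the minus strand was placed 34 bp further in, between probes at 66526930 and 66526935. The span removes the 3′ part of Ube3a (66526901 to 66570605) and everything up to the Snrpn end, and it leaves the 5′ part of Ube3a, with its start, in place. These borders are steps in RNA signal, taken here as the ends of the deleted DNA, which the arrays do not measure. They, the far ends of the changes and the extent of the Ube3a block were all drawn on the arrays compared, so the p-values of regions next to them overstate the certainty.

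**Figure D1:**
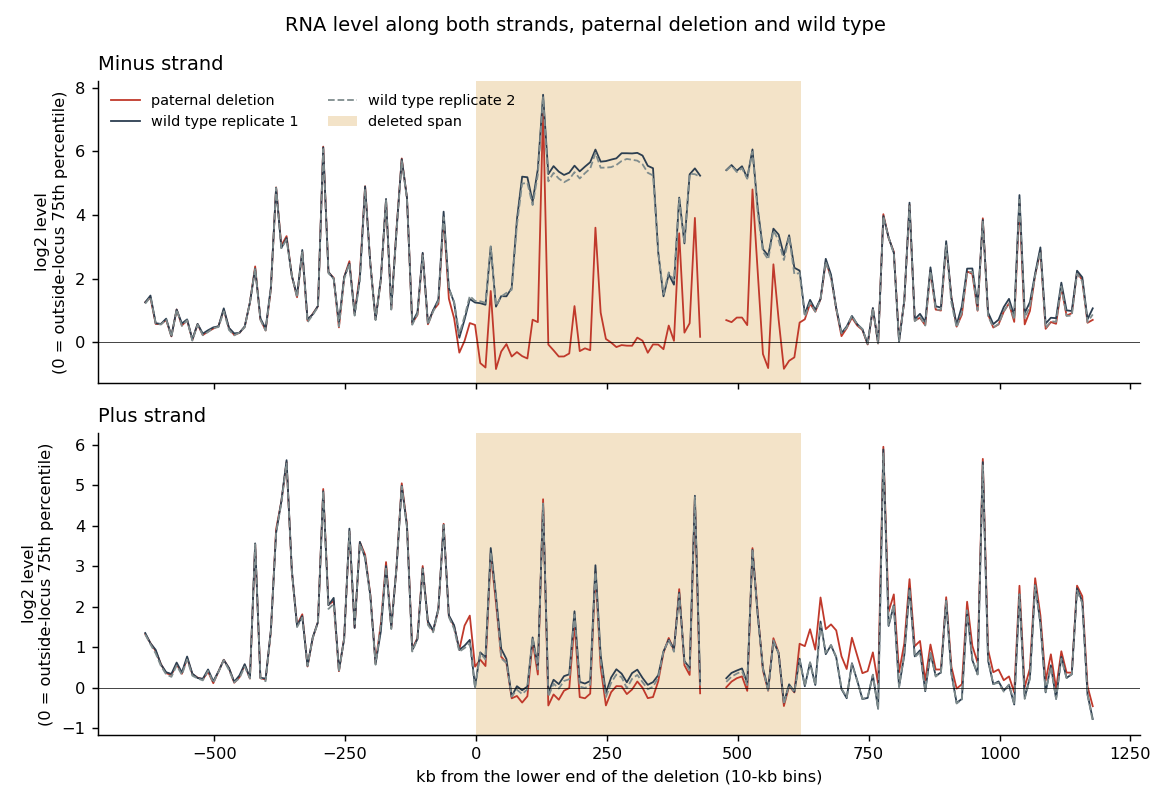
Mean log2 level of 10-kb bins of the minus strand (top) and plus strand (bottom) in the paternal deletion and both wild types, by distance from the lower end of the deletion (kb). Over plateau 2 of the shaded deleted span the minus strand averages 0.36 in the deletion, against 5.54 and 5.34 in wild type, with a few narrow peaks in the deletion, and the lines break where the array has no probes.

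RNA of the minus strand fell over most of the deleted span. Runs of probes that kept their signal are described below. The largest gap between probe starts, 50076 bp, also lies in the span. The span between Ube3a and the Snrpn end was divided into 5 plateaus of the wild-type minus-strand level, numbered from Ube3a upwards, and a region, bin or probe is called where its adjusted p in limma is under 0.05. The 270-kb plateau 2 (66600001 to 66870000) had a level of 0.36 in the paternal deletion, against 5.54 and 5.34 in wild type, a change of -5.07 (SE 0.10, adjusted p = 9.05e-06, limma). Before any scaling, the median red intensity of its 2513 probes was 89.5 in the deletion, against 7777.5 and 6460 in wild type. Plateau 4 (66930001 to 67060000) had 1.36 in the deletion, against 5.44 and 5.40 in wild type, a change of -4.06 (SE 0.05, adjusted p = 2.93e-06). Plateau 5 (67060001 to 67147632), at the Snrpn end, had 0.09 in the deletion, against 3.003 and 2.89 in wild type, a change of -2.86 (SE 0.07, adjusted p = 1.11e-05). In all 3 the wild types lay close together and the deletion lay far below both.

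The dimmer stretches of the minus strand fell too. Plateau 3 (66870001 to 66930000) had 0.55 in the paternal deletion, against 2.58 and 2.62 in wild type, and plateau 1 (66570606 to 66600000) had -0.34 in the deletion, against 1.50 and 1.50 in wild type (adjusted p = 1.11e-05 for both). Opposite the deleted 3′ part of Ube3a, where the minus-strand RNA is Ube3a-ATS, the level was -0.32 in the deletion and 1.50 and 1.55 in wild type, a change of -1.85 (SE 0.05, adjusted p = 1.27e-05). There 53.1% of probes were well above background in the deletion and all of them in both wild types, so the decrease is partly a bound. The same holds for plateaus 1, 3 and 5, where 57.0%, 67.4% and 61.4% of probes were well above background in the deletion. On background-subtracted linear signal the median probe kept 2.52% of wild type opposite the 3′ part, 3.80% in plateau 1, 0.785% in plateau 2, 3.97% in plateau 3, 2.37% in plateau 4 and 1.52% in plateau 5. Replicate 1 of wild type stood at 94.8% to 111% of replicate 2 over the same 6 regions.

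Counted in 10-kb bins, all 57 minus-strand bins inside the deletion were called lower, against 23.0% of the 356 bins of both strands called lower. The deepest changes were -5.96, -5.94 and -5.91, in neighbouring bins that begin at 66810001, 66820001 and 66800001. The bin at 66810001 had -0.11 in the paternal deletion, against 5.94 and 5.76 in wild type. The 3 bins that changed least were at 66650001 (-0.38), 67090001 (-1.09) and 66910001 (-1.10). The bin at 66650001 was the brightest of them, with 7.36 in the deletion, against 7.78 and 7.70 in wild type, and 11 of its 91 probes were saturated on at least 1 of the 3 arrays. All 57 bins lay below wild type, and their median change was -4.59.

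**Figure D2:**
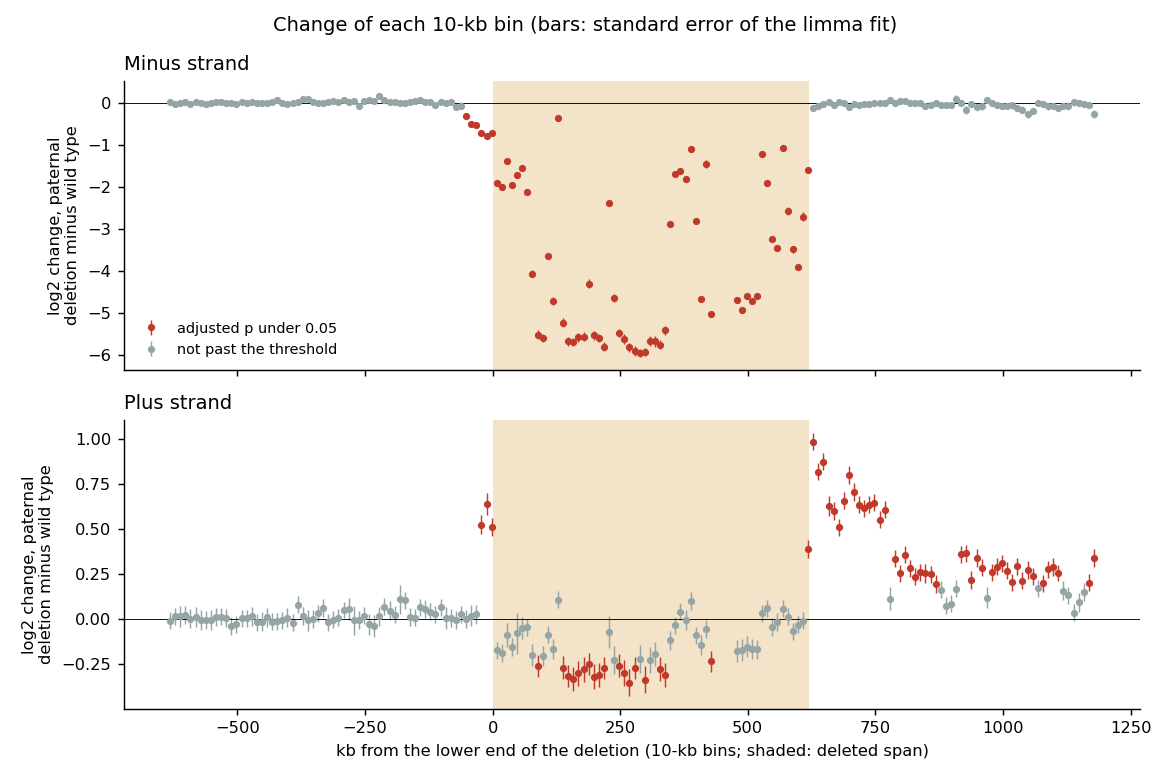
Change of each 10-kb bin (log2, paternal deletion minus wild type, bars are the standard error of the limma fit) on the minus strand (top) and plus strand (bottom), by distance from the lower end of the deletion (kb). All 57 minus-strand bins inside the shaded span are called lower, and 44 of the 56 plus-strand bins above it are called higher.

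Single minus-strand probes inside the deletion differed widely in how much signal they kept. Of 7150 probes well above background in both wild types, 5388 (75.4%) kept under 10% of the wild-type signal, 860 kept 10% to 50% and 902 (12.6%) kept over 50%. The classes are described without a test, since they were set by the values themselves. The probes that kept over 50% had a median minus-strand level of 6.43 in the paternal deletion, against 6.47 and 6.30 in wild type. Their partner probes at the same positions on the plus strand were bright too, with 4.98 in the deletion, against 4.97 and 4.92 in wild type. For the 5388 lost probes the plus-strand partners stood at -0.78 in the deletion, against -0.55 and -0.60 in wild type. Kept signal thus lay mostly where both strands were bright, and lost signal where the plus strand was dim.

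Kept probes lay in runs. In 10 runs of at least 10 adjacent probes, covering 53.0 kb in all, lay 486 of the 902 kept probes (53.9%). The longest run (67052476 to 67063755) held 103 probes with a median of 7.74 in the paternal deletion, against 7.81 and 7.68 in wild type. The next (66649365 to 66659214) held 90 probes with 7.91 in the deletion, against 8.03 and 7.98 in wild type, and it covers most of the bin that changed least. Kept probes also stood at 6.27 in the maternal deletion and at 6.30 and 6.39 in the double deletions. Whether these probes also read sequence from elsewhere in the genome was not tested, since the files hold no probe sequences. The 3 single probes that fell most, among those well above background on all 3 arrays, lay at 67007049 (-8.59), 67047526 (-8.48) and 66744185 (-8.41), and the first of these had 0.05 in the deletion, against 8.65 and 8.63 in wild type. The first and the second were saturated on at least 1 array, so their changes are bounds and their rank is not settled.

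**Figure D3:**
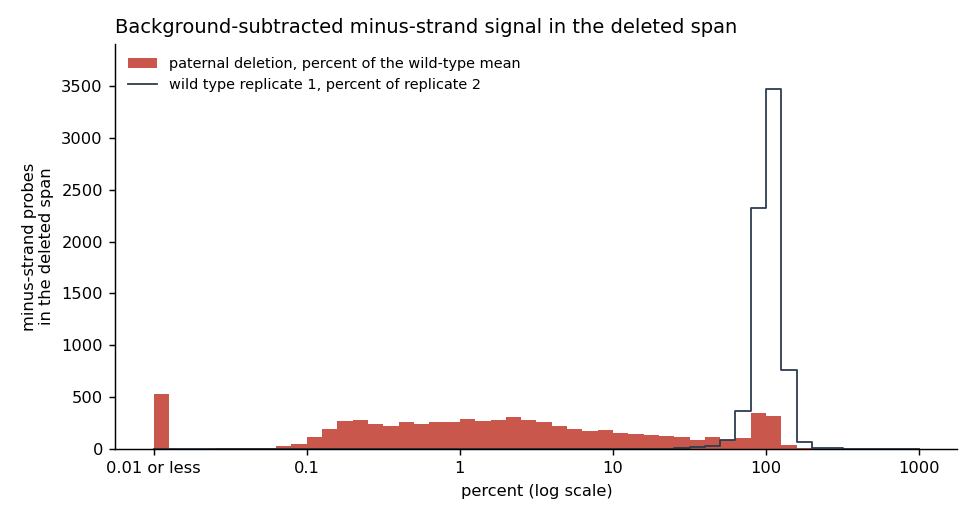
Number of minus-strand probes inside the deletion by their background-subtracted signal in the paternal deletion as a percent of the wild-type mean (bars, log scale along the horizontal axis), with replicate 1 of wild type as a percent of replicate 2 (line). Most probes keep under 10%, and a smaller group near 100% overlaps the wild-type line.

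Below the lower end, outside the deletion, the minus strand was lower as well, by less and over a limited distance. Opposite the 24.3 kb of the 5′ part of Ube3a next to the deletion, called the near stretch (66502581 to 66526900), the level was 0.63 in the paternal deletion and 1.19 and 1.27 in wild type, a change of -0.60 (SE 0.06, adjusted p = 0.00117). Opposite the far stretch of the 5′ part (66483450 to 66502580) it was -0.04 in the deletion and 0.45 and 0.53 in wild type, a change of -0.52 (adjusted p = 0.00198). Below the Ube3a block, between 66465665 and 66483449, it was 1.57 in the deletion and 1.93 and 1.90 in wild type, a change of -0.34 (adjusted p = 0.00467). Median probes kept 42.4%, 45.6% and 69.3% of wild type in these 3 stretches, going away from the deletion. The near stretch includes the short piece beside the deletion, described below, where the minus strand was higher. Its values therefore mix a gain with a loss.

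Farther down no change was called. The lower flank (65890585 to 66465664) had 1.47 in the paternal deletion, against 1.49 and 1.45 in wild type, a change of 0.00 (adjusted p = 0.969). Of the 63 minus-strand bins that lie below the deletion, 5 were called lower and 0 higher, against 23.0% and 13.5% of all 356 bins. Those 5 were adjacent, at 66470001 to 66510001, with changes of -0.32, -0.50, -0.53, -0.72 and -0.80 towards the deletion. The far end of the decrease was placed at 66465665, and background-subtracted signal moved it to 66454115. Of 7 alternatives that redrew this end, 3 left it in about the same place, and the range was 66454115 to 66466105.

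Right beside the lower end the minus strand went the other way. In the 2.99 kb from 66523911 to 66526900, all 59 tested minus-strand probes lay above wild type and 23 were called higher singly, against 4.74% of all 47782 probes. Their median was 1.97 in the paternal deletion, against 1.26 and 1.39 in wild type, which is 156% of wild type for the median probe. The largest single changes, at 66526799 and 66526827, were 1.36 (2.30 in the deletion, against 1.01 and 0.88 in wild type, adjusted p = 0.0028) and 1.33 (1.57 in the deletion, against 0.25 and 0.22 in wild type, adjusted p = 0.00215). In the adjoining 2.94 kb farther down, 49 of 50 probes lay below wild type and 27 were called lower, against 14.6% of all probes, with a median of 0.76 in the deletion, against 1.68 and 1.74 in wild type. Just inside the deletion, 50 of 56 probes were called lower, with a median of -1.28 in the deletion, against 1.12 and 1.30 in wild type. The stretch was chosen after its values were seen, so it has no test of its own.

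The other mutants had lower values there. Of the same 59 probes, 2 lay above wild type in the maternal deletion and 0 in either double deletion. Their median was 0.97 in the maternal deletion, and -1.03 and -0.68 in the double deletions.

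At the upper end, the Snrpn side, minus-strand RNA outside the deletion was largely kept. In the first 2.355 kb above the deletion (67147633 to 67149987), the median of 46 probes was 2.19 in the paternal deletion, against 2.71 and 2.71 in wild type. Of these probes 44 lay below wild type and 12 were called lower, against 14.6% of all probes, and the median probe kept 74.9% of wild type. In a stretch of the same length just inside the deletion, 48 of 50 probes were called lower and the median probe kept 2.53%. The stretch outside the deletion ends at a probe called lower, so its limit is not independent of these values. It has no test of its own. Within the kept stretch, the probe at 67149166 had 5.12 in the deletion, against 5.25 and 5.22 in wild type. The probes at its far edge were lower, with 4.86 in the deletion, against 6.42 and 6.33 in wild type, at 67149936 (change -1.52, adjusted p = 0.00154), and 0.98, against 2.85 and 2.74, at 67149987. The near upper flank (67147633 to 67300094) had a minus-strand level of 0.86 in the deletion, against 0.92 and 0.89 in wild type, and the far upper flank (67300095 to 67700765) had 1.43, against 1.54 and 1.44. Neither change was called (-0.05 and -0.06), and 0 of the 56 minus-strand bins above the deletion were called, although 48 lay below wild type.

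**Figure D4:**
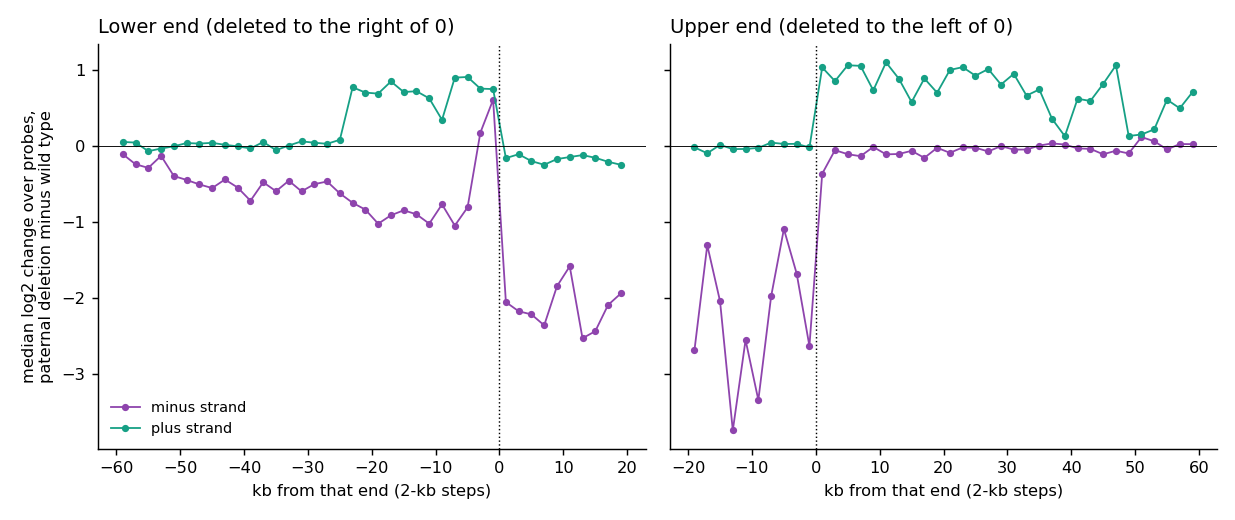
Median change over probes (log2, paternal deletion minus wild type) in 2-kb steps around the lower end (left) and upper end (right) of the deletion, for the minus and plus strands. At the lower end the minus strand lies between -1.05 and -0.75 from 24 kb to 4 kb outside, at 0.61 in the last step before the deletion and at -2.05 in the first step inside it.

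On the plus strand the changes lay mainly outside the deletion. Over the near stretch of the 5′ part of Ube3a, which the deletion spares, plus-strand RNA had 1.50 in the paternal deletion, against 0.82 and 0.75 in wild type, a change of 0.71 (SE 0.05, adjusted p = 0.000581). The median red intensity of its 423 probes was 406 in the deletion, against 221 and 205.5 in wild type, and the median probe stood at 202% of wild type. Over the far stretch, which holds the Ube3a start, it had 1.17 in the deletion, against 1.17 and 1.11 in wild type, and the change of 0.03 was not called (adjusted p = 0.795). The gain thus began within the Ube3a block, 24.3 kb from the deletion, and not at the start of the gene.

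The deleted 3′ part of Ube3a differed little on the plus strand. It had 1.44 in the paternal deletion, against 1.62 and 1.57 in wild type, and its change of -0.15 did not pass the test (SE 0.05, adjusted p = 0.07). The median probe kept 84.2% of wild type. In the maternal deletion, which removes the same part from the other chromosome, it had 0.74, and the paternal deletion exceeded the maternal one by 0.70 (SE 0.06, adjusted p = 0.000968). The stretch below the Ube3a block had 1.47 in the paternal deletion, against 1.46 and 1.44 in wild type, and the lower flank had 1.38, against 1.39 and 1.35. Neither was called (changes of 0.02 and 0.01). Single probes could still fall far. Among probes well above background on all 3 arrays, the largest plus-strand decreases were at 66013619 (-4.45), 65966214 (-3.92) and 66786645 (-3.58). The first and second lie in the lower flank and the third in plateau 2. The first had -0.01 in the paternal deletion, against 4.28 and 4.61 in wild type. Of the 63 plus-strand bins that lie below the deletion 2 were called higher, at 66500001 (0.53) and 66510001 (0.64), where 13.5% of all 356 bins were called higher.

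Between Ube3a and Snrpn the plus strand was dim and changed slightly. Plateau 2 had a plus-strand level of 0.28 in the paternal deletion, against 0.57 and 0.46 in wild type, a change of -0.24 (SE 0.06, adjusted p = 0.0378). The other 4 plateaus changed by -0.13 to 0.00 and were not called. Of the 57 plus-strand bins inside the deletion, 18 were called lower and 0 higher, against 23.0% and 13.5% of all 356 bins, with the largest changes at 66790001 (-0.35), 66820001 (-0.33) and 66680001 (-0.33). Opposite these 18 bins the minus-strand change had a median of -5.60 (-5.94 to -4.31), and opposite the 39 uncalled bins a median of -2.83 (-5.96 to -0.38), so the ranges overlap. Whether minus-strand RNA contributes to the plus-strand signal was not tested. The highest plus-strand changes inside the deletion were 0.11 at 66650001, 0.10 at 66910001 and 0.06 at 67060001, and none was called.

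Above the deletion plus-strand RNA was called higher in both the near and the far upper flank. The far one was not called when only probes well above background on all 3 arrays were used. The near upper flank (152.46 kb) had 0.97 in the paternal deletion, against 0.27 and 0.27 in wild type, a change of 0.69 (SE 0.05, adjusted p = 0.00039). In it 98.9% of probes were well above background in the deletion, against 63.0% and 62.6% in wild type. The far upper flank had 1.05 in the deletion, against 0.82 and 0.81 in wild type, a change of 0.23 (SE 0.05, adjusted p = 0.0149). Of the 56 plus-strand bins above the deletion, 44 were called higher, against 13.5% of all 356 bins, and all 56 lay above wild type. With only probes well above background on all 3 arrays, 33 of the 56 were called higher. With the double deletions joined as 1 group 0 were called higher. With all 8 arrays, where the double deletions were also joined and the polyA samples added as a group, 12 were. The largest changes were at 67150001 (0.99), 67170001 (0.87), 67160001 (0.82), 67220001 (0.80) and 67230001 (0.71). The bin at 67150001 had 1.02 in the deletion, against 0.03 and 0.04 in wild type.

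The plus-strand gain set in at the end of the deletion and declined in a step. The first probe above the upper end (67147710) had 1.10 in the paternal deletion, against -1.25 and -1.19 in wild type, while the last 50 probes before it had a median change of 0.00. In 50-kb steps away from the deletion the mean change over all tested probes was 0.82, 0.65 and 0.62, then 0.31, 0.24 and 0.17, then 0.30, 0.27, 0.25, 0.24 and 0.12. A last incomplete step with 57 probes had 0.27. Among probes well above background on all 3 arrays, the largest single changes were 2.41 at 67221326, 2.32 at this first probe and 2.21 at 67157589. Of the 7837 tested plus-strand probes above the deletion, 2683 passed the filter on dim probes only through the deletion array. Without that filter the changes were 0.69 near and 0.22 far, and with only probes well above background on all 3 arrays they were 0.58 near and 0.17 far, the last no longer called (adjusted p = 0.0549).

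**Figure D5:**
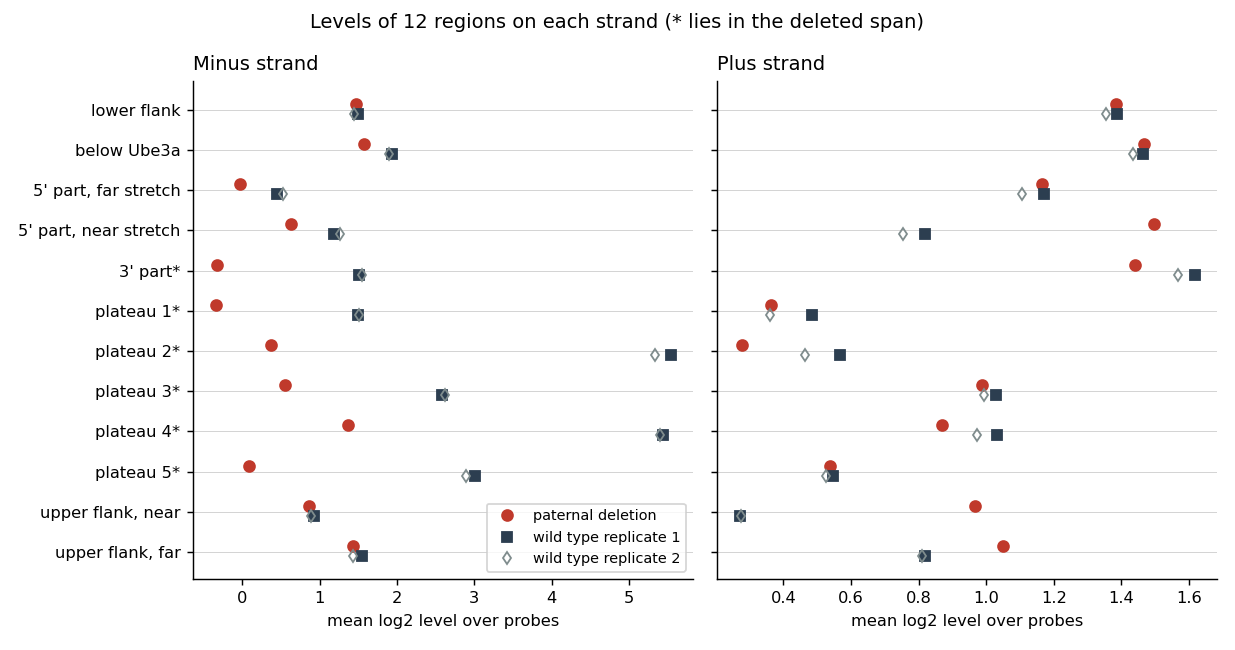
Mean log2 level over the probes of 12 regions on the minus strand (left) and plus strand (right) in the paternal deletion and each wild type, with regions in the deleted span marked by an asterisk. On the minus strand the deletion lies below both wild types in all marked regions, and on the plus strand it lies above both in the near stretch of the 5′ part and in both upper flanks.

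The balance of the strands within an array is left unchanged by any single scale factor per array. It was not tested under quantile normalization, which is not such a factor. Minus strand minus plus strand, over the near stretch of the 5′ part of Ube3a, was -0.87 in the paternal deletion, against 0.37 and 0.51 in wild type, a change of -1.31 (SE 0.08, the same in all regions because the fit gave them 1 common spread). Opposite and over the 3′ part it was -1.76 in the deletion, against -0.11 and -0.02 in wild type. In the near upper flank it was -0.11 in the deletion, against 0.65 and 0.61 in wild type, a change of -0.74. In plateau 2 it was 0.09 in the deletion, against 4.97 and 4.87 in wild type. Of 178 bins with both strands, 113 were called lower (63.5%), and 0 were called higher.

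The same deletion on the maternal chromosome shares the wild types, so its values are given side by side. In the near stretch of the 5′ part the plus strand changed by 0.71 in the paternal deletion and 1.06 in the maternal deletion, and in the near upper flank by 0.69 and 1.16. Set against each other directly, the paternal deletion was lower by 0.35 in the first (adjusted p = 0.0135) and by 0.47 in the second (adjusted p = 0.00288). Of 24 regions 13 (54.2%), and of 356 bins 111 (31.2%), were called different between the deletions. On the minus strand, plateau 2 changed by -5.07 in the paternal and -0.15 in the maternal deletion. Outside the deletion, below its lower end, the minus strand was lower in both. The paternal and maternal changes were -0.60 and -0.36 opposite the near stretch, -0.52 and -0.26 opposite the far stretch. Below Ube3a they were -0.34 and -0.22, and were not called different. In replicates 1 and 2 of the double deletion, these regions changed by -1.81 and -1.42, -1.10 and -0.90, and -0.74 and -0.60.

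These calls set 1 deletion array against 2 wild-type arrays, whose difference gives 1 residual degree of freedom, and assume that the deletion sample varies like the wild types. In all, 130 of 356 bins (36.5%), 13 of 24 regions (54.2%) and 9259 of 47782 probes (19.4%) were called in limma at an adjusted p under 0.05. With the double deletions joined as 1 group in the fit, 0 bins were called (96 had an unadjusted p under 0.05). The regions still called were then the minus strand of the 3′ part and of plateaus 1, 3 and 4 (adjusted p = 0.047 each) and the plus strand of the near stretch (adjusted p = 0.0356). The adjusted p was then 0.0627 for minus-strand plateaus 2 and 5 and the far stretch, 0.115 for the near stretch, and 0.0724 for the stretch below Ube3a and the plus strand of both upper flanks. The fit with the double deletions joined counts the difference between them as spread, and their titles name different promoter alleles. On the minus strand, plateau 2 changed by -3.38 in replicate 1 of the double deletion and by -1.19 in replicate 2. Scaling on all probes, locus included, added 1.25 to every change, and quantile normalization moved the median change by 0.37 and single regions by other amounts. Both turned the sign of smaller decreases. With the local background subtracted, the near upper flank rose by 2.57 and the minus strand opposite the 3′ part fell by 4.71.

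Probes outside the locus, on which the arrays were scaled, changed little. Their changes lay between -0.22 and 0.24 at the 5th and 95th percentile. Of 2193 such probes 8 were called higher and 5 lower, against 4.74% and 14.6% of all 47782 probes. The largest decreases were at chr16:32617172-32617231 on the minus strand, with -0.92 in the paternal deletion, against 2.42 and 2.25 in wild type, and at chr6:125116637-125116681 on the plus strand, with 0.70, against 3.78 and 3.45. Of the 5 largest increases, 4 were at chrX:103382074-103382357, by 1.37 to 1.92. The probe with the largest of them had 3.16 in the deletion, against 1.44 and 1.06 in wild type. With the double deletions joined as 1 group 0 of these probes were called, and 16 had an unadjusted p under 0.05.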

How the data were processed

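Arrays were grouped from the labels alone. The deposited scanner files hold the red intensity of each spot on a linear scale, not normalized between arrays. Agilent Feature Extraction wrote them, as version 10.7.3.1 per the file headers or 10.9 per the submitters' processing notes, for an mm9 design. The series matrix deposited by the authors holds red intensity of the locus times a factor per array and served as an alternative.

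Median red intensities were background-corrected with normexp (offset 50) in limma 3.58.1 (R 4.3.3) and put on the log2 scale by computation here, since the authors deposited none. Control and outlier spots were left out, spots of a probe averaged, and the 75th percentile of the 3338 outside-locus probes subtracted. A probe was tested if well above background in the deletion or in both wild types (47782 of 53834). Bins are 10 kb with at least 3 probes, and 5 plateaus were set, not estimated. limma (lmFit, eBayes, two-sided, Benjamini-Hochberg, threshold 0.05) gave the tests, checked on simulated data. Bins and regions shared 1 prior and were adjusted separately. Named regions, bins and probes followed a rule by place and rank of change. Members, lists and tests were chosen with earlier results of these data known. No gene list or marker list could be applied, since the files name no genes. All arrays lay on 1 slide, so no batch could be fitted. Nothing says that the wild types are separate animals, so p-values measure the spread between these samples.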

Additional observations from a re-analysis of the deposited data

Results flagged for a closer look

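The values below are differences between the paternal and the maternal deletion (paternal minus maternal, log2), listed because a direct limma test of the difference passed in 13 of 24 regions (54.2%). Each rests on 1 array per deletion, with the error taken from the 2 wild types.

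On the minus strand the paternal deletion was lower in 8 regions. Plateau 2 differed by -4.92 (0.36 in the paternal deletion and 5.28 in the maternal deletion), plateau 4 by -3.74, plateau 5 by -2.71 and plateau 3 by -1.76. Plateau 1 differed by -1.65, and the part opposite the deleted 3′ part of Ube3a by -1.62 (-0.32 in the paternal and 1.29 in the maternal deletion). Outside the deletion the differences were smaller, at -0.26 opposite the far stretch of the 5′ part (adjusted p = 0.0357, limma) and -0.24 opposite the near stretch (adjusted p = 0.0401).

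On the plus strand the paternal deletion was higher by 0.70 over the deleted 3′ part of Ube3a (1.44 in the paternal and 0.74 in the maternal deletion) and by 0.34 in plateau 1 (0.36 in the paternal and 0.02 in the maternal deletion, adjusted p = 0.0298). It was lower in 3 regions where both deletions lay above wild type, with differences of -0.35 over the near stretch of the 5′ part, -0.47 in the near upper flank and -0.28 in the far upper flank.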

How the results depend on the processing

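No paired analysis was possible because the groups compared share fewer than 2 replicate numbers, and the mean-signal alternative was not run because the files have no such column. The length between the plus-strand steps of the change, 620.73 kb, was the same in all 7 alternatives that redrew it from the same arrays. Over 16 alternatives the minus strand changed by -6.40 to -3.18 in plateau 2 and -4.71 to -0.60 opposite the 3′ part of Ube3a, and the plus strand by 0.56 to 1.96 over the near stretch and 0.58 to 2.57 in the near upper flank.

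Scaling to the 75th percentile of all probes, most of them in the locus, shifted every change by 1.25 and called 355 of 356 bins (301 higher, 54 lower), 24 regions (18 higher, 6 lower), 46815 probes (41268 higher, 5547 lower) and 2189 outside probes (2184 higher, 5 lower), and 352 bins and 24 regions between the deletions. Signs then turned on the minus strand below Ube3a (0.91), in the far (0.73) and near stretch (0.65) and in the near (1.20) and far upper flank (1.19), and on the plus strand over the 3′ part (1.10) and plateaus 1 to 4 (1.19, 1.01, 1.23 and 1.12). Minus-strand bins turned at 66910001 (0.15), 67090001 (0.16), 66650001 (0.87), 66510001 (0.45), 66500001 (0.53), 66490001 (0.72), 66480001 (0.75) and 66470001 (0.93), and plus-strand bins at 66790001 (0.90), 66820001 (0.92) and 66680001 (0.92).

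Quantile normalization moved the median change of all tested probes by 0.37, with other amounts for single regions, and called 339 bins (281 higher, 58 lower), 22 regions (16 higher, 6 lower), 25219 probes (18719 higher, 6500 lower) and 854 outside probes (849 higher, 5 lower), and 336 bins and 24 regions between the deletions. The minus strand turned below Ube3a (0.31), in the near stretch (0.090) and in the near (0.42) and far upper flank (0.47), and the plus strand over the 3′ part (0.48) and plateaus 1 to 4 (0.38, 0.20, 0.43 and 0.34). Bins turned at 66480001 (0.10) and 66470001 (0.29) on the minus strand and at 66790001 (0.11), 66820001 (0.13) and 66680001 (0.059) on the plus strand.

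The plus-strand decrease over the 3′ part passed the test with detected outside probes as scale (-0.14), with offset 16 (-0.19), with the processed signal (-0.15) and in the series matrix (-0.28). That of plateau 2 missed it without a filter on dim probes (-0.24) and with the median over probes (-0.29), for causes that were not tested. With the double deletions as 1 group, limma called 5 regions and 0 bins, strand differences, probes and outside probes (unadjusted p under 0.05 in 96, 60, 9179 and 16), in a fit where the difference between those samples enters the spread. Not called there were the minus strand of the near stretch (-0.60) and plateau 2 (-5.07) and the plus strand of plateau 2 (-0.24) and the near upper flank (0.69). The fit with all 8 arrays also joined the double deletions as 1 group and added the polyA samples as another. In it limma called 74 bins (15 higher, 59 lower), 10 regions (2 higher, 8 lower) and 57 strand differences. Not among them were the near stretch of the minus strand (-0.60) and plateau 2 of the plus strand (-0.24). Of the 56 plus-strand bins above the deletion, 12 were called higher in that fit.

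Leaving out either wild type left the double deletions, joined as 1 group, as the only source of spread, with the lone arrays assumed to vary like them, and limma called 0 of each (without replicate 1 and without replicate 2, unadjusted p under 0.05 in 17 and 17 bins, 4 and 4 regions, 12 and 9 strand differences, 4303 and 4518 probes, 10 and 11 outside probes). The titles of the double deletions name different promoter alleles, so that spread includes any difference between the alleles. Changes without 1 of the wild types ranged over -0.64 to -0.56 (near stretch), -1.87 to -1.83 (3′ part) and -5.17 to -4.97 (plateau 2) on the minus strand, and 0.68 to 0.74 (near stretch), -0.29 to -0.19 (plateau 2) and 0.69 to 0.70 (near upper flank) on the plus strand. Dim probes limit what can be read, as 63.0% and 62.6% of plus-strand probes of the near upper flank were well above background in wild type.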
